A study of Mus musculus with 11 samples.

Results

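The expression of 10 adhesion genes, of 18193 genes with a probe set of 1 gene symbol, was compared between CD8+ effector T cells of different origin. The genes were Cd44, the integrin chain genes Itgb1, Itga4, Itgal, Itgb2 and Itgav, the selectin ligand genes Selplg, Fut7 and Gcnt1, and Icam1. They were listed by name, and all 10 passed the filter on low values. All cells came from Pmel-1 transgenic mice, whose CD8 T cells carry 1 transgenic receptor, specific for the melanocyte antigen gp100. Cells had been enriched as naive (CD44-) or central memory (CD44+) CD8 T cells, so Cd44 encodes the marker that separated the starting cells. Both kinds were activated on plate-bound CD3 and CD28 antibodies, restimulated with allogeneic feeder cells carrying the hgp100(25-33) peptide, and grown for 2 weeks with 10 cetus units of interleukin 2. They then received a final CD3/CD28 stimulation of 4 h or none. Single arrays were made of 3 memory-derived unstimulated, 3 memory-derived stimulated, 2 naive-derived unstimulated and 3 naive-derived stimulated samples, in 3 independent experiments. These are therefore cultured effector cells of 1 receptor specificity, and not the freshly isolated naive or memory cells. The labels do not say how many mice each experiment used.

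T cells leave the blood in steps. P-selectin glycoprotein ligand 1, encoded by Selplg, lets them roll on selectins of the vessel wall, but only after enzymes such as the fucosyltransferase Fut7 and the core 2 branching enzyme Gcnt1 have built the selectin-binding sugar on it. Integrins, pairs of an alpha and a beta chain that chemokine and T cell receptor signals switch to a binding state, then arrest the cell on ligands such as ICAM-1 and VCAM-1. CD44 binds hyaluronan in the matrix, can also take part in rolling, and stays high on T cells that have met antigen.

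The 11 arrays hold 1 value per probe set, on a logarithmic scale that the authors had quantile normalized. Values are given here as log2, and the base was inferred from the spiked controls. Differences were tested with limma over 14795 genes, adjusted by Benjamini and Hochberg, and called at an adjusted p below 0.05. All 8 CD8 T cell markers, among them Cd8a, Cd8b1 and Cd3e, lay above the filter level of 1.54 on every array. Memory-derived unstimulated array 3 stood apart from the others of its group for several of the 10 genes, so values without it are given for the calls it ends or makes and for several differences that it moves. RNA quality was read from the actin control, as the log2 value of its 3' probe set less that of its 5' probe set. In memory-derived cells this was 0.875 to 1.17 before and 1.43 to 1.73 after the final stimulation, and in naive-derived cells 1.54 to 1.59 before and 1.93 to 2.60 after it. The same difference of the Gapdh control was -1.51 to -1.29 before and -1.43 to -1.38 after in memory-derived cells, and -1.65 to -1.42 before and -1.82 to -1.48 after in naive-derived cells, and these ranges mostly overlapped. The actin difference thus moved with the groups compared below, and its part in the results was not tested. In RNA from whole cultures, fewer cells of a kind and less RNA per cell cannot be told apart.

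In memory-derived cells the final stimulation raised Cd44 and Itgav and lowered Itgb1, Itgal, Itgb2, Selplg and Fut7, so 7 of 10 genes were called, against 31.6% of all genes tested (14.3% higher and 17.3% lower). The median difference was -0.34 for the 10 genes and 0.00 for all genes. In naive-derived cells 0 of 10 were called, against 0.0135% of all genes, where limma called 2 and had 1252 at an unadjusted p below 0.05. Without the final stimulation, 5 of 10 genes (Itgb1, Itgal, Itgb2, Selplg and Fut7) were lower in naive-derived than in memory-derived cells, against 25.8% of all genes called and 14.9% called lower. With the final stimulation 2 of 10 (Itgb1 and Selplg) were lower, against 3.7% of all genes called and 2.01% called lower. These shares of all genes depend on the filter. With the filter at the 60th percentile, 10308 genes were tested, and all 10 genes were among them. Of these, limma called 4990 for stimulation in memory-derived cells, 4392 for origin without the final stimulation and 745 with it. Among genes of higher level the shares called were thus larger than those given above. The comparisons share groups, so they are not separate observations.

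**Figure D1:**
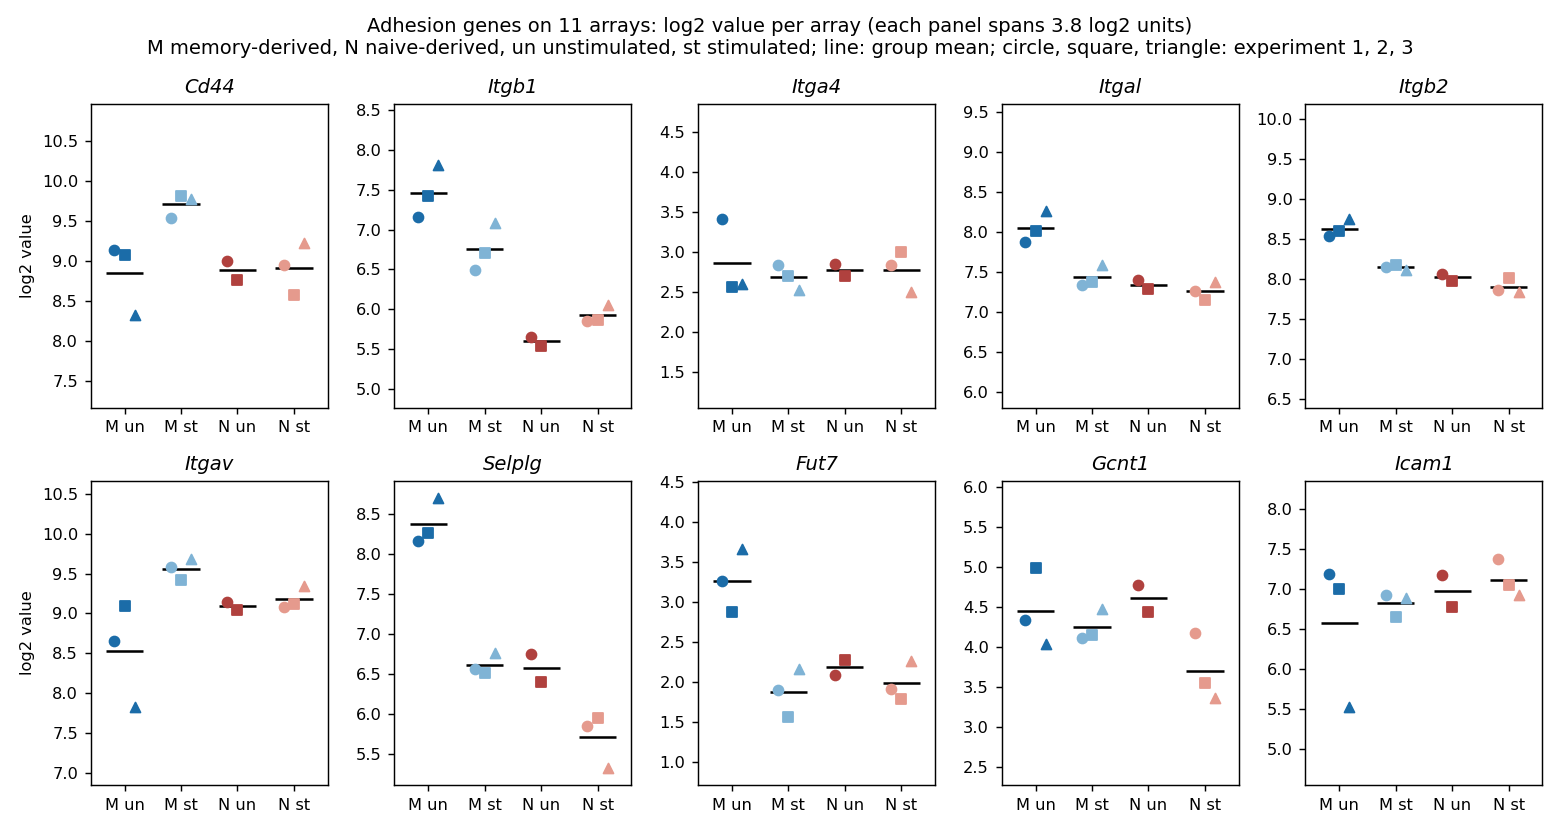
Each panel plots the log2 value of 1 gene (vertical axis, the same span in every panel) on the 11 arrays, by group along the horizontal axis. Points are arrays, their shape gives the experiment and lines are group means. Itgb1, Itgal, Itgb2, Selplg and Fut7 are highest in memory-derived unstimulated cells, and Cd44 and Itgav in memory-derived stimulated cells.

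Cd44 was highest in memory-derived stimulated cells. Its log2 value was 9.14, 9.07 and 8.33 on the memory-derived unstimulated arrays and 9.54, 9.81 and 9.78 on the memory-derived stimulated arrays. These ranges did not overlap, and array 3 was the low one of the unstimulated group. The rise of Cd44 was 0.86 log2 units (SE 0.229, 3 arrays a group, limma adjusted p = 0.0147), a 1.82-fold change. The rise was 0.61 without memory-derived unstimulated array 3 (limma adjusted p = 0.0449), and the call ended without memory-derived stimulated array 2 (limma adjusted p = 0.0514) and with experiments 1 and 2 only (0.57, limma adjusted p = 0.0705).

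In naive-derived cells Cd44 stood at 9.004 and 8.76 without and at 8.95, 8.57 and 9.23 with the final stimulation, and these groups overlapped. The difference was 0.04, with a 95% interval of -0.53 to 0.60. The gene of the enrichment marker did not differ by origin beyond its error before the final stimulation (naive-derived minus memory-derived 0.04, interval -0.53 to 0.60, and -0.22 without memory-derived unstimulated array 3). After it, all 3 naive-derived arrays lay below all 3 memory-derived arrays, by 0.79 on average (SE 0.229), which did not pass (limma adjusted p = 0.0936). It passed without memory-derived unstimulated array 3 (limma adjusted p = 0.0302) and with trend and robust eBayes (limma adjusted p = 0.0422).

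For the genes with a promoter window in the RefSeq table (GRCm38.p6), windows of the 250 bases before the annotated start were searched on both strands. A window was found for 7 of the 10 genes (10 windows); Itgal, Itgb2 and Selplg had no entry. The motifs were GGAANTTCC (NF-kappaB), TGANTCA (AP-1), GGAAAA (NFAT), CCGGAA (ETS), TGTGGT (RUNX) and GGGCGG (SP1), where N is any base. Of 32851 windows in the table, 0.813%, 6.75%, 20.4%, 12.03%, 14.0% and 32.7% held a match to each, in that order. The windows below are those of the 2 genes that rose in memory-derived cells (Cd44 and Itgav), of Itgb1 and Fut7, which fell, and of Icam1. They are written 5′ to 3′ on the gene's strand, and capitals mark the matches.
Cd44, chr2:102901666-102901915, minus strand: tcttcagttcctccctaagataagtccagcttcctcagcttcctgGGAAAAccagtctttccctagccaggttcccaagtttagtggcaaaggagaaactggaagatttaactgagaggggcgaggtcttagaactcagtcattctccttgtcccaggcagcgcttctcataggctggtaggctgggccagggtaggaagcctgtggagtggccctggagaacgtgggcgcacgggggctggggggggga
Itgav, chr2:83724147-83724396, plus strand: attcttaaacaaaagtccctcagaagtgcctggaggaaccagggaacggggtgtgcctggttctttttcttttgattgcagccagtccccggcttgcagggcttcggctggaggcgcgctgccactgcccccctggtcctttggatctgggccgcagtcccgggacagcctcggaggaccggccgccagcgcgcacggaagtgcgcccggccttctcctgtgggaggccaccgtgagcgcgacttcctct
Itgb1, chr8:128685404-128685653, plus strand: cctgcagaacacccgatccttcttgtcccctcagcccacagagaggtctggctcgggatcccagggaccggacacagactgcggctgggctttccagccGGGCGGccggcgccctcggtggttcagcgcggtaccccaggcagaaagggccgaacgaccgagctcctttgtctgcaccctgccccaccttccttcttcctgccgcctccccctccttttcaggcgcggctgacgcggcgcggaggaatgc
Fut7, chr2:25422992-25423241, plus strand, the first of 2 annotated starts: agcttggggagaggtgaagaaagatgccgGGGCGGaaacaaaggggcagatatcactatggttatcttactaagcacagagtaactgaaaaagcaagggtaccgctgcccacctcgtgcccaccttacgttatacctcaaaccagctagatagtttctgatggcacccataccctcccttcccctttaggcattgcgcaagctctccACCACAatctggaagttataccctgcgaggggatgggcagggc
Icam1, chr9:21015690-21015939, plus strand: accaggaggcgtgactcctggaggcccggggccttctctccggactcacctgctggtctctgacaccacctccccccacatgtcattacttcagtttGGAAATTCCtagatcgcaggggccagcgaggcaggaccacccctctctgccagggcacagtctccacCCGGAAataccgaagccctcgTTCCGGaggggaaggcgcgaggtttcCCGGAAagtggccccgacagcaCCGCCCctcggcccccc
The window of Cd44 held 1 NFAT match, at 205 to 200 bases before the start, and that of Itgav held none of the 6 motifs. Itgb1 had 1 SP1 match, and Fut7 had 1 SP1 and 1 RUNX match in the window shown. Icam1 was the one gene of the 7 with an NF-kappaB match, GGAAATTCC at 153 to 145 bases before the start, and it also had 3 ETS matches and 1 SP1 match. A match describes these letters and no binding was measured.

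Itgb1 encodes the integrin beta 1 chain, which pairs with many alpha chains, among them alpha 4 in the VCAM-1 receptor VLA-4. It was called lower in naive-derived cells in both stimulation states, as was Selplg. The log2 value was 7.15, 7.42 and 7.81 on memory-derived unstimulated arrays and 6.49, 6.70 and 7.08 on memory-derived stimulated arrays. On naive-derived arrays it was 5.66 and 5.54 without and 5.85, 5.87 and 6.06 with the final stimulation. Every naive-derived array lay below every memory-derived array, and the ranges of all 4 groups were apart.

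Without the final stimulation Itgb1 was lower in naive-derived cells by 1.86 (log2 difference -1.86, SE 0.212, n = 2 and 3, limma adjusted p = 0.000338), or 3.62-fold. This call held under all 21 alternatives, with adjusted p from 2.61e-05 to 0.00624. With the final stimulation the difference was -0.83 (SE 0.19, limma adjusted p = 0.0356), or 1.78-fold. Leaving out 1 array at a time ended this call for 8 of the 11 arrays, and the difference ranged from -0.97 to -0.67 over the 11 and the adjusted p of the lost calls from 0.0516 to 0.131. The call held without memory-derived stimulated array 1 and without memory-derived unstimulated arrays 1 and 3.

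In memory-derived cells Itgb1 fell by 0.70 after stimulation (SE 0.19, limma adjusted p = 0.0165). The call was lost without memory-derived stimulated array 1 (-0.57, adjusted p = 0.0691), memory-derived stimulated array 2 (-0.67, adjusted p = 0.0545) or memory-derived unstimulated array 3 (-0.52, adjusted p = 0.0604) in limma. In naive-derived cells the difference was 0.33 (SE 0.212, limma adjusted p = 0.743), with the stimulated arrays above the unstimulated ones.

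Itga4, which encodes the alpha 4 partner of beta 1 and beta 7, was measured at a low level and no comparison passed. Its 4 group means lay between 2.69 and 2.86 on the log2 scale, and the groups overlapped in every pair compared. Array values ran from 2.49 to 3.41, and the highest was memory-derived unstimulated array 1. The 95% intervals reached from -0.67 to 0.32 for stimulation in memory-derived cells and from -0.64 to 0.46 for origin without the final stimulation. Differences within these intervals are thus not excluded for Itga4.

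Itgal and Itgb2 encode the alpha L and beta 2 chains of LFA-1, the integrin that binds ICAM-1 in arrest and in the contact with target cells. They went the same way. Itgal stood at 7.88, 8.02 and 8.27 on memory-derived unstimulated arrays and at 7.34, 7.38 and 7.59 on memory-derived stimulated arrays. Itgb2 stood at 8.53, 8.59 and 8.75 against 8.14, 8.18 and 8.10. For both genes the 3 unstimulated arrays were above every other array of the study.

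After stimulation of memory-derived cells Itgal fell by 0.62 (SE 0.138, limma adjusted p = 0.00634) and Itgb2 fell by 0.48 (SE 0.114, limma adjusted p = 0.0083). The Itgb2 call was lost with experiments 1 and 2 only (limma adjusted p = 0.0742) and when arrays were scaled to the hybridization controls (-0.51, limma adjusted p = 0.0833). On the linear scale these were changes of 1.53-fold and 1.398-fold.

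On naive-derived arrays Itgal stood at 7.40 and 7.29 without the final stimulation and at 7.27, 7.15 and 7.38 with it. Itgb2 stood at 8.06 and 7.97, then at 7.86, 8.01 and 7.83. The unstimulated and stimulated arrays overlapped for both genes. Without the final stimulation, Itgal was lower in naive-derived than in memory-derived cells by 0.71 (log2 difference -0.71, SE 0.154, limma adjusted p = 0.00718) and Itgb2 by 0.61 (log2 difference -0.61, SE 0.127, limma adjusted p = 0.00612). Both calls were lost without naive-derived unstimulated array 2 (limma adjusted p = 0.0641 and 0.058), which leaves 1 array in that group, and that of Itgal also with the mean of its probe sets (-0.24, limma adjusted p = 0.24). With the final stimulation the differences by origin were -0.17 and -0.24 and did not pass (limma adjusted p = 0.603 and 0.328).

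Itgav encodes the alpha V chain, whose integrins bind vitronectin and fibronectin and can activate latent TGF-beta. Unlike the chains of LFA-1, it rose on stimulation of memory-derived cells. It stood at 8.66, 9.10 and 7.83 on the unstimulated and at 9.58, 9.42 and 9.69 on the stimulated arrays. The unstimulated arrays spread widely, with array 3 lowest, and all lay below the stimulated ones. The rise was 1.03 (SE 0.257, limma adjusted p = 0.0108), or 2.05-fold, and 0.68 without memory-derived unstimulated array 3 (limma adjusted p = 0.0135).

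Naive-derived cells had Itgav at 9.14 and 9.04 without and at 9.08, 9.12 and 9.35 with the final stimulation. These values lay between the memory-derived group means, and the naive-derived groups overlapped. The origin difference was 0.56 without (limma adjusted p = 0.182) and -0.38 with the final stimulation (limma adjusted p = 0.521). The first depended on single arrays: it was 0.21 without memory-derived unstimulated array 3 (limma adjusted p = 0.456) and 0.85, a call, without array 2 of that group (limma adjusted p = 0.0272). The mean of probe sets also called it (0.66, limma adjusted p = 0.0382).

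Selplg, the gene of P-selectin glycoprotein ligand 1, had the largest change of the 10 on stimulation of memory-derived cells. Its log2 value was 8.16, 8.27 and 8.70 on the unstimulated and 6.57, 6.51 and 6.76 on the stimulated arrays. The gap between the groups was several times their spread. Selplg fell by 1.76 (SE 0.198, limma adjusted p = 0.000201), which is 3.40-fold, and the call held in all 21 alternatives, with adjusted p from 1.44e-05 to 0.00156.

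Naive-derived cells had less Selplg RNA in both states. The values were 6.76 and 6.397 without and 5.85, 5.95 and 5.33 with the final stimulation. Without the final stimulation the difference by origin was -1.80 (SE 0.222, limma adjusted p = 0.000474), a 3.48-fold lower level, and this too held in all 21 alternatives, with adjusted p up to 0.00864. With it the difference was -0.90 (SE 0.198, limma adjusted p = 0.0302). This second call was lost with the replicate block (limma adjusted p = 0.0636) and when any of 5 arrays was left out, namely each memory-derived stimulated array and naive-derived stimulated arrays 1 and 3. Without those arrays the difference was -0.97 to -0.71 and the limma adjusted p 0.0502 to 0.116.

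Within naive-derived cells the 3 stimulated arrays lay below both unstimulated ones for Selplg. The difference was -0.87 (SE 0.222), with a 95% interval of -1.36 to -0.38, and it did not pass over all genes (limma adjusted p = 0.295).

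Fut7, the fucosyltransferase gene that completes the selectin-binding sugar in T cells, was also highest in memory-derived unstimulated cells. It stood at 3.26, 2.87 and 3.67 there and at 1.898, 1.56 and 2.16 after stimulation. The stimulated values were close to the filter level of 1.54, so a fall can be understated. Fut7 fell by 1.39 (SE 0.222, limma adjusted p = 0.00109), and the call held in all 21 alternatives, with adjusted p up to 0.00638. Naive-derived arrays gave 2.09 and 2.28 without and 1.92, 1.79 and 2.27 with the final stimulation. The difference by origin was -1.08 without the final stimulation (SE 0.248, limma adjusted p = 0.00932, and 0.075 without naive-derived unstimulated array 1) and 0.12 with it (limma adjusted p = 0.849).

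Gcnt1, which makes the core 2 branch that carries the sugar, did not pass in any comparison. It stood at 4.33, 4.98 and 4.03 in memory-derived unstimulated and at 4.11, 4.15 and 4.47 in memory-derived stimulated cells, and these overlapped. The difference was -0.21, and -0.41 without memory-derived unstimulated array 3 (limma adjusted p = 0.608 and 0.323). In naive-derived cells it stood at 4.77 and 4.44 without and at 4.18, 3.55 and 3.36 with the final stimulation, where the stimulated arrays were all lower. That difference was -0.91 (SE 0.295, interval -1.56 to -0.26, limma adjusted p = 0.447).

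Icam1 encodes the ligand of LFA-1, which activated T cells also carry themselves. It stood at 7.19, 7.003 and 5.52 on memory-derived unstimulated and at 6.92, 6.65 and 6.89 on memory-derived stimulated arrays. Array 3 of the first group was below every other array of the study. The difference was 0.25 with all arrays (SE 0.356, limma adjusted p = 0.646) and -0.28 without that array (limma adjusted p = 0.322), so it had no settled direction. Naive-derived arrays gave 7.18 and 6.78, then 7.38, 7.05 and 6.92, and overlapped. The 95% interval for naive-derived stimulation reached from -0.74 to 1.02.

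**Figure D2:**
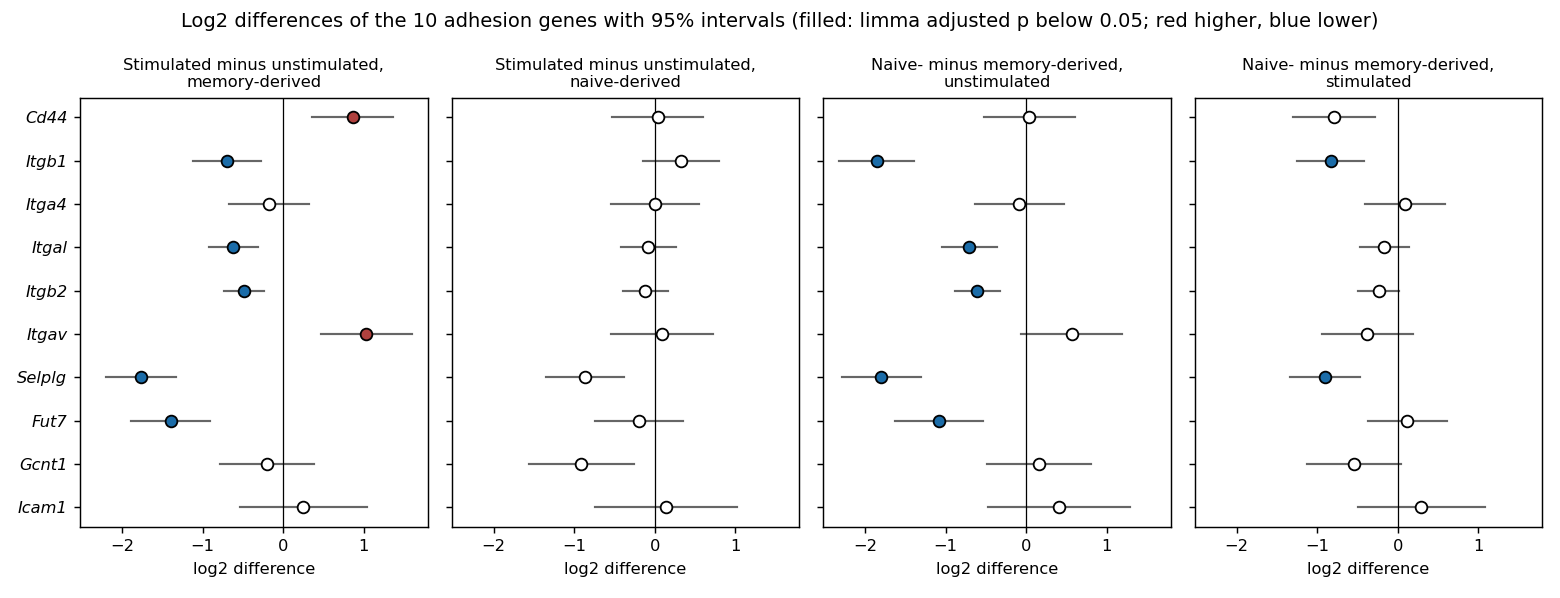
Log2 differences (horizontal axis) of the 10 genes in 4 comparisons, with 95% intervals from limma as bars. Filled points passed at an adjusted p below 0.05, red for higher and blue for lower. The column of stimulation in memory-derived cells holds 7 filled points and that in naive-derived cells holds 0.

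Whether stimulation acted differently by origin was tested as the interaction, the naive-derived less the memory-derived response. In limma 0 of 10 genes passed, against 2.71% of all genes (1.62% higher and 1.09% lower). An unadjusted p below 0.05 was found for 6 of the 10 and for 3454 of all genes. Without a call, the larger responses of memory-derived cells are not shown to differ from those of naive-derived cells. The values were 1.197 for Fut7 (SE 0.332, limma adjusted p = 0.0728), 1.02 for Itgb1 (SE 0.285, limma adjusted p = 0.073), 0.90 for Selplg (limma adjusted p = 0.11), -0.94 for Itgav (limma adjusted p = 0.176, and -1.22 with 0.0398 without memory-derived unstimulated array 2) and -0.83 for Cd44 (limma adjusted p = 0.179). Each of Fut7 and Itgb1 passed in 4 of 20 alternatives, and the lowest limma adjusted p was 0.0253 and 0.031.

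Naive-derived cells without the final stimulation were also set beside memory-derived cells with it. Of the 10 genes, Itgb1 alone differed, at -1.16 in naive-derived cells (SE 0.212, limma adjusted p = 0.0185), against 1.85% of all genes called (0.98% higher and 0.865% lower). That call ended when any of 4 arrays was left out, namely naive-derived unstimulated array 1 (limma adjusted p = 0.106), the same group's array 2 (0.169), and memory-derived stimulated arrays 2 (0.0576) and 3 (0.0624). The difference was -0.04 for Selplg (interval -0.53 to 0.45), -0.09 for Itgal (interval -0.43 to 0.25) and -0.12 for Itgb2 (interval -0.40 to 0.16). For Cd44 it was -0.83 and did not pass (limma adjusted p = 0.173).

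The 10 genes had 28 probe sets of 1 symbol, of which 23 passed the filter. The values above are from the probe set with the highest mean of each gene. Itgb2, Selplg, Fut7 and Icam1 had 1 each. When every probe set was tested, all 3 of Cd44 that passed the filter rose in memory-derived cells, by 0.86, 0.88 and 1.202 (limma adjusted p = 0.0159, 0.00929 and 0.00237).

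For Itgav, 3 of 4 probe sets rose, by 1.03, 1.37 and 1.66, and the fourth, at -0.06, did not pass (limma adjusted p = 0.9). The probe sets with the larger changes were also higher in naive-derived than in memory-derived unstimulated cells, by 0.96 and 0.90 (limma adjusted p = 0.00559 and 0.0301), where the main one was not called. For Itgb1, 3 of 4 were lower in naive-derived unstimulated cells, by 1.86, 1.65 and 0.83 (log2 differences -1.86, -1.65 and -0.83, limma adjusted p = 0.000397, 0.000608 and 0.00623). The fourth was at 0.05.

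The other comparisons of Itgb1 rested on fewer probe sets. On stimulation of memory-derived cells 2 of 4 fell, by 0.70 and 1.14, and the others were at -0.30 and 0.29. By origin with the final stimulation only the main one passed, at -0.83, and the others were at -0.35, -0.62 and -0.16. In naive-derived unstimulated against memory-derived stimulated cells the main one again passed alone, at -1.16, and the others were at -0.51, -0.53 and -0.24. The mean of the probe sets gave -0.49 and -0.61 for these last comparisons, and neither passed (limma adjusted p = 0.113 for both). This mean includes the fourth probe set, whose mean lay below the filter level. In each comparison of this paragraph the last single value, namely 0.29, -0.16 and -0.24, is from that probe set.

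Probe sets disagreed for other genes. Itgal rests on 1 probe set, since its second was at -0.13 for stimulation in memory-derived cells (limma adjusted p = 0.555) and at 0.23 for origin without the final stimulation (limma adjusted p = 0.345). For Itga4, 2 weaker probe sets fell in memory-derived cells, by 0.70 and 0.62 (limma adjusted p = 0.0395 and 0.0383), where the main one did not pass. The sources used here do not give where in each transcript these probe sets lie.

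**Figure D3:**
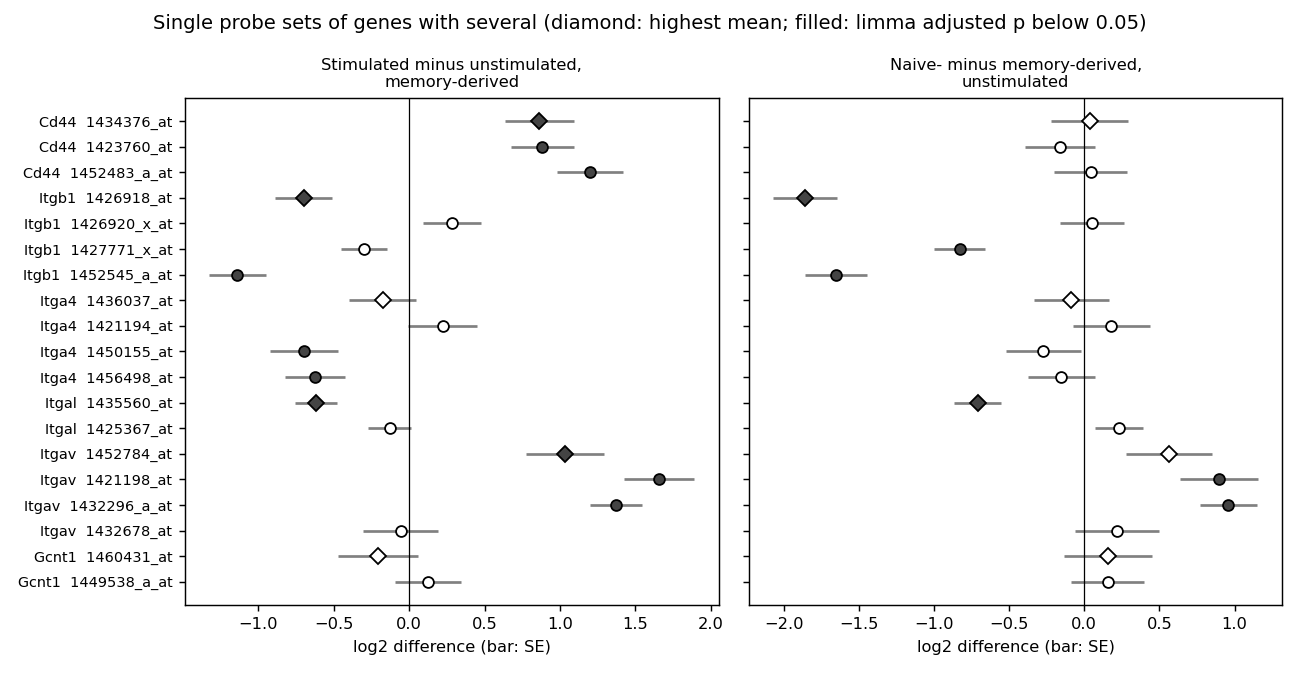
Log2 differences (horizontal axis, bars are SE) of each tested probe set of the genes with more than 1, for stimulation in memory-derived cells (left) and for origin without the final stimulation (right). Diamonds are the probe sets with the highest mean, and filled symbols passed at a limma adjusted p below 0.05. The 3 probe sets of Cd44 lie together at 0.86 to 1.202 on the left, while the 2 of Itgal differ.

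Other genes of the same adhesion systems were followed as 6 lists. Over all genes, stimulation of memory-derived cells called 14.3% higher and 17.3% lower, and origin without the final stimulation called 10.9% higher and 14.9% lower. Among other integrin alpha chains (11 of 15 tested), 4 fell and 1 rose in memory-derived cells, and 3 were lower and 1 higher in naive-derived unstimulated cells. Itga1, a collagen receptor chain, fell by 1.49 (limma adjusted p = 0.00232). Itga3, a laminin receptor chain, rose by 1.21 (limma adjusted p = 0.000303). Itgax, which encodes CD11c, differed by -1.77 (limma adjusted p = 0.00123) and Itgae by 4.77 (limma adjusted p = 1.13e-05) by origin without the final stimulation. Itgae encodes the alpha E chain CD103, which binds E-cadherin of epithelium, and stood at 2.68 ± 0.50 (SD, n = 3) in memory-derived and at 7.45 ± 0.0137 (SD, n = 2) in naive-derived unstimulated cells.

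Among other beta chains (4 of 6 tested), 2 fell in memory-derived cells, Itgb7 by 1.16 (limma adjusted p = 0.00286) and Itgb3, a partner of alpha V, by 1.11 (limma adjusted p = 0.00637). Itgb7, the partner of both alpha E and alpha 4, was higher in naive-derived stimulated than in memory-derived stimulated cells, by 1.53 (limma adjusted p = 0.00337). Itgb5 was not called in any comparison, and Itgb4 lay below the filter level on 9 of 11 arrays.

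The list of integrin activation and coupling genes leaned downward on stimulation of memory-derived cells, with 16 of 31 tested genes lower and 3 higher, against 17.3% and 14.3% of all genes. The median was -0.59 against 0.00 for all genes. Rasgrp1, an activator of Ras and Rap signalling in T cells, fell by 1.69 (limma adjusted p = 3.31e-05), and Fermt3, the kindlin that binds beta chain tails, fell by 1.25 (limma adjusted p = 0.000156). Stk4, the kinase MST1 that acts on LFA-1 through RAPL, fell by 1.63 (limma adjusted p = 0.000201), and Pxn, the adaptor paxillin, fell by 1.37 (limma adjusted p = 0.000514). In naive-derived unstimulated cells 13 of 31 were lower and 2 higher than in memory-derived ones, against 14.9% and 10.9% of all genes. With the final stimulation the origin comparison called 1 lower and 1 higher.

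Selectin ligand synthesis and carriers were mixed, with 8 of 30 tested genes higher and 8 lower in memory-derived cells after stimulation, against 14.3% and 17.3% of all genes, and a median of 0.00. St3gal6, a sialyltransferase that can cap selectin ligands, fell by 1.37 (limma adjusted p = 0.00124) and B4galt1, which builds the chain beneath, fell by 0.78 (limma adjusted p = 0.00622). Both were also lower in naive-derived cells without the final stimulation, at -2.31 and -1.61 (limma adjusted p = 0.000267 and 0.000409), and with it, at -1.18 and -0.88 (limma adjusted p = 0.014 and 0.0175). Fut8, the core fucosyltransferase of N-glycans, fell by 1.51 in memory-derived cells (limma adjusted p = 0.000158). Cd24a, which encodes a P-selectin ligand of other cells, rose by 1.86 (limma adjusted p = 0.0012) from a level below the filter level on 2 of 3 memory-derived unstimulated arrays.

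Of the CD44 partners (14 of 17 tested), 3 fell and 1 rose in memory-derived cells, a share near the 31.6% of all genes called. Ezr, whose product ezrin links CD44 to actin, fell by 0.93 (limma adjusted p = 0.000535), Hmmr, a hyaluronan-binding protein also found on the spindle, fell by 1.14 (limma adjusted p = 0.00613), and Hyal2, a hyaluronidase, rose by 0.96 (limma adjusted p = 0.00421). Adam10, a protease that can shed CD44, was higher in naive-derived cells, by 0.76 without and 0.68 with the final stimulation (limma adjusted p = 0.0102 and 0.0403).

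Of 23 tested immunoglobulin-type adhesion molecules and CD2 family members, 4 rose and 2 fell in memory-derived cells, a share below the 31.6% of all genes called. Slamf1, a self-binding receptor of activated lymphocytes, rose by 2.42 (limma adjusted p = 0.000387) and Alcam, the ligand of CD6, rose by 1.61 (limma adjusted p = 0.000331). Cd47, the ligand of SIRP alpha, fell by 1.06 (limma adjusted p = 0.000335), and Cd96 fell by 0.73 (limma adjusted p = 0.00305). Slamf1 was higher in naive-derived cells without and with the final stimulation, by 3.59 and 1.77 (limma adjusted p = 0.000171 and 0.0108). In all 6 lists 0 genes were called for stimulation in naive-derived cells.

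**Figure D4:**
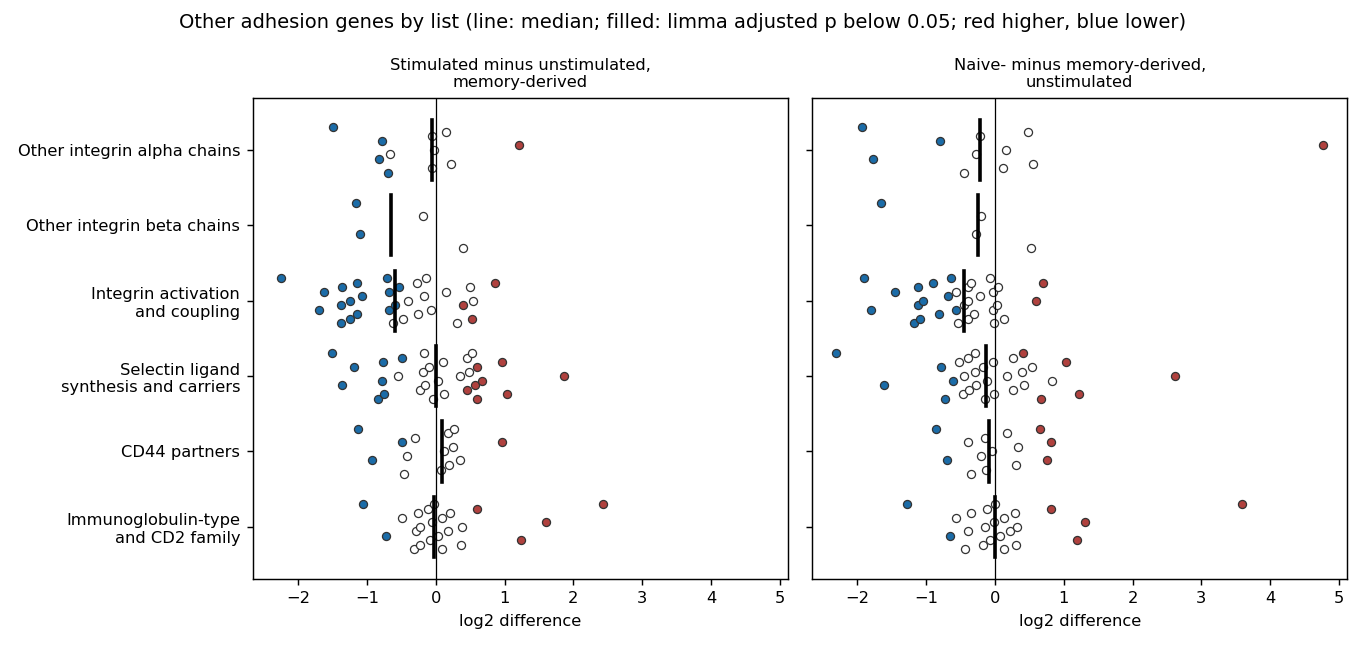
Log2 differences (horizontal axis) of every tested gene of the 6 lists, for stimulation in memory-derived cells (left) and for origin without the final stimulation (right). Vertical lines are list medians, and filled points passed at a limma adjusted p below 0.05, red for higher and blue for lower. Integrin activation and coupling genes have a median of -0.59 on the left, and Itgae is the far right point at 4.77.

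The genes whose pattern over the 11 arrays was most like that of each member are given as a description, by Pearson's r over 14795 genes. The arrays fall into 4 groups, so r mostly reflects group means. For Cd44 they were Tmed5 (r = 0.94) and Phlda1 (r = 0.936), for Itgav Rgs16 (r = 0.978) and Mrpl32 (r = 0.977), and for Icam1 Ifng (r = 0.901) and Gtf2e1 (r = 0.888). For Selplg they were Capns1 (r = 0.996) and Inpp5d (r = 0.994), for Itgb2 Trpv2 (r = 0.992) and Ywhah (r = 0.989), and for Itgal Flna (r = 0.99) and Chkb (r = 0.984). For Itgb1 they were Stard10 (r = 0.977) and Npc1 (r = 0.97), for Fut7 Sema4f (r = 0.981) and AI847159 (r = 0.979), for Gcnt1 Ttc17 (r = 0.928) and Dcun1d3 (r = 0.906), and for Itga4 Zfp24 (r = 0.909) and Lyg1 (r = 0.892). Among the 10 genes, Selplg and Itgb2 were most alike (r = 0.976) and Itgal and Itgb2 followed each other at r = 0.925. Cd44 and Itgav had r = 0.778, and Itgav and Fut7 ran most opposite (r = -0.814).

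Several of these genes are also expressed by myeloid and B cells, so markers of other cell types were read on the same arrays. For the myeloid and dendritic cell list (11 of 12 genes with a value), the log2 of the summed level was 7.07 to 7.41 before and 6.73 to 6.88 after the final stimulation in memory-derived cells, and 5.94 to 6.24 before and 5.76 to 6.31 after it in naive-derived cells. It was thus highest where Itgb1, Itgb2 and Selplg were highest, and its part in their values was not tested. In each group 6 or 7 of the 11 genes lay above the filter level on every array. Itgax (4.13 to 6.65 over all arrays) and Cd68 (2.96 to 5.37) had the highest values and so weigh most in the sum, and both were higher in memory-derived cells. Cd14 had group means of 2.71 and 2.81 in memory-derived and of 1.51 and 1.60 in naive-derived cells, without and with the final stimulation. Csf1r lay between 2.46 and 2.80 by group mean, while Mpeg1 lay below the filter level on all 11 arrays, Lyz2 on 7 and Itgam on 6. Without the final stimulation, Fcgr3 (2.52 and 1.92) and Itgam (1.61 and 1.39) were also higher in memory-derived than in naive-derived cells by group mean. The rest of the list went the other way: Csf1r (2.46 and 2.80), Adgre1 (1.69 and 2.00), Flt3 (1.60 and 1.88), Ly86 (1.73 and 1.87), Lyz2 (1.35 and 1.75) and Mpeg1 (0.87 and 1.07). The summed level ranged over all arrays from 3.98 to 4.37 for B cells, 3.86 to 4.19 for neutrophils and 3.09 to 3.55 for the joint list of NK, CD4 and regulatory T cells. It was 4.71 to 5.08 for stromal and endothelial cells, 2.64 to 3.14 for erythroid cells and 11.42 to 12.04 for the CD8 T cell markers. The joint list had a value for 4 of 7 genes (Cd4, Foxp3, Klrb1b and Ncr1). Its gamma-delta T cell genes had none, so those cells were not read. Of the markers of the starting cells, Ccr7, Cd27 and Il7r were read beside Cd44. Il7r, the interleukin 7 receptor gene, had group means of 6.33 and 5.50 in memory-derived unstimulated and stimulated cells and of 4.93 and 4.75 in naive-derived ones. Ccr7 lay between 3.16 and 3.99 and Cd27 between 6.11 and 6.70 by group mean.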

How the data were processed

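RNA of 11 samples was hybridised to Affymetrix mouse arrays by the authors. Per the submitters' processing notes, values were made with Affymetrix Expression Console. The summarization method and log base are not given in the sources used here. The deposited values are treated as log10: between the spiked controls bioB, bioC, bioD and cre they rise by 0.965, 0.8 and 1.7 for each 10-fold in concentration. The final rise is above 1, so this base is inferred, and every fold rests on it. All columns held the same sorted values (0 to 4.56), so they had been quantile normalized; array number limits the precision.

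Values were multiplied by 3.32 to give log2. Of 45101 probe sets, 64 are controls, 34945 had 1 gene symbol, 932 several and 9160 none in the annotation used here. Of those with 1 symbol, 34741 had an identifier in the gene table (GRCm38.p6), and 0 symbols changed. Each gene took its probe set of highest mean, and a gene was tested if 2 or more arrays were above their 40th percentile (1.54). One model over the 4 groups was fitted with limma 3.58.1 in R 4.3.3 (lmFit, eBayes; 7 residual and 3.86 prior degrees of freedom), with two-sided p-values adjusted over 14795 genes. The fit was tested on simulated data, where changes were read for stimulation in memory-derived cells only. It recovered 62% of log2 changes of 1 and 97% of log2 changes of 2. Recovery in the other comparisons was not read. Figures used matplotlib 3.10.9.

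The replicate number is the experiment, so it pairs arrays. Deviations from group means correlated at -0.0716 to 0.112 within an experiment (15 pairs across groups) and at -0.131 to 0.112 between experiments. The 5 pairs of the same experiment and origin were all positive, at 0.047 to 0.112 (median 0.0944). The main model held no term for this pairing. Scaling to the hybridization controls was an alternative. It moved the called genes that were higher from 45.6% to 33.9% for origin with the final stimulation and from 59.6% to 46.6% for the interaction.

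The 10 genes and the lists were chosen with earlier results of these data known. All 10 are named whatever their result. From each of the 6 lists the 4 genes with the lowest adjusted p over the 6 comparisons are named, and for each member the 2 genes of highest r. All myeloid marker genes with a value are named, but which of their values to give was chosen after they were seen.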

Additional observations from a re-analysis of the deposited data

Results flagged for a closer look

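For 4 genes the effect went one way in every experiment of one group and the other way in every experiment of the other. Only experiments with both arrays of a comparison enter, so each side holds 2 or 3 differences, some of them small. The share of all genes with such a pattern was not counted, so the count is not a result about these genes. Cd44 differed by 0.40 to 1.45 between stimulated and unstimulated cells in the 3 experiments of memory-derived cells and by -0.19 and -0.06 in the 2 of naive-derived cells (interaction -0.83). Over all arrays the naive-derived difference of Cd44 was 0.04. Its other tested probe sets were at 0.28 and 0.36 there (limma adjusted p = 0.831 and 0.777). The negative sign of Cd44 thus rests on the main probe set in the paired arrays. Itgb1 differed by -0.73 to -0.66 in memory-derived and by 0.19 and 0.32 in naive-derived cells (interaction 1.02). Other tested probe sets of Itgb1 were at 0.17, -0.10 and 0.08 for stimulation in naive-derived cells, and none passed. Their interactions were 1.30 (limma adjusted p = 0.0471), 0.20 and -0.21, the last from the probe set with a mean below the filter level. For origin, Fut7 differed by -1.17 and -0.59 without and by 0.02 to 0.23 with the final stimulation (interaction 1.197). The low Fut7 values outside memory-derived unstimulated cells limit this, as given above. Icam1 differed by -0.23 and -0.02 without and by 0.03 to 0.45 with it (interaction -0.11, which changed sign in 4 of 20 alternatives). Over all arrays Icam1 did not change direction by state. It was 0.40 higher in naive-derived cells without and 0.29 higher with the final stimulation (limma adjusted p = 0.509 and 0.749). The paired view leaves out memory-derived unstimulated array 3, which had no naive-derived unstimulated partner. The limma test of the difference itself did not pass for any of the 4 (adjusted p = 0.179, 0.073, 0.0728 and 0.928).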

How the results depend on the processing

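Over the 10 genes and 6 comparisons, 1154 of 1250 values kept their direction and side of the threshold, 36 calls were lost, 16 were gained, 44 uncalled values changed sign and 0 called values reversed. Many of these differences could not move. Leaving out an array outside a comparison keeps its difference, as do the filter settings, trend and robust eBayes and the fit on only the groups compared. Most values were also uncalled at the start, so the total does not measure how firm the calls are. For origin with the final stimulation, 2 genes were called; the count was 3 with trend and robust eBayes, 1 with the replicate block, 1 with the mean of probe sets, 0 with experiments 1 and 2 only and 0 with only the groups compared. For the interaction 0 were called, but 1 when every probe set was tested, 2 with the filter at the 60th percentile, 2 with trend and robust eBayes and 2 with a random replicate block by origin and experiment, which was added after seeing the data. For naive-derived unstimulated against memory-derived stimulated cells 1 was called, 2 when every probe set was tested, 0 with the mean of probe sets and 0 with only the groups compared. Stimulation in memory-derived cells called 7 genes, 8 when every probe set was tested, 6 when scaled to the hybridization controls and 5 with experiments 1 and 2 only. With 1 array left out the counts ranged from 5 to 7 for that comparison, 3 to 6 for origin without and 0 to 3 for origin with the final stimulation, 0 to 2 for the interaction and 0 to 1 for naive-derived unstimulated against memory-derived stimulated cells. The cause was not tested. Apart from the Selplg call above, the replicate block ended no call. Over all genes the calls ranged over the alternatives from 2755 to 5267 for stimulation in memory-derived cells (4675), 0 to 13 in naive-derived cells (2), 1843 to 4392 for origin without (3819) and 258 to 745 with the final stimulation (548), 0 to 1505 for the interaction (401; 26 with the replicate block) and 92 to 404 for the last comparison (273), main counts in brackets. Groups of 2 or 3 arrays limit every comparison.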
